A study of Mus musculus with 16 samples.

Results

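The genes described here encode 10 enzymes of glycolysis, namely Hk2, Pfkl, Aldoa, Tpi1, Gapdh, Pgk1, Pgam1, Eno1, Pkm and Ldha. They were taken by symbol from a table of 55385 genes, and where a symbol had several rows the protein-coding row with the highest mean was used, so that each gene had 1 row. All 10 were above the filter on low values and were among the 14795 genes tested. Their levels were measured by bulk RNA sequencing in 16 libraries of cells labelled as microglia, sorted from the retina of Iba1-EGFP mice, a strain in which the Iba1 label marks microglia and other macrophages. The untreated group (day 0, age 15 weeks) was compared with groups taken 2 days (13 weeks), 4 days (13 weeks) and 7 days (16 weeks) after optic nerve crush, an injury of the axons of retinal ganglion cells. Each group held 4 libraries, and all carried the Iba1-EGFP strain label. Age and day cannot be told apart except between days 2 and 4, and no label names a sham-operated group. The labels do not say whether libraries came from separate animals or how many cells each holds, so the p-values measure the spread between these libraries, which may be technical.

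Glycolysis splits glucose into pyruvate in the cytosol and yields ATP without oxygen. Hexokinase traps glucose as glucose 6-phosphate, phosphofructokinase commits it to the pathway, and aldolase and triose phosphate isomerase give the triose phosphate that the lower part of the pathway oxidises. Lactate dehydrogenase then turns pyruvate into lactate and regenerates the NAD+ that the dehydrogenase step consumes. Activated macrophages and microglia are known for a shift towards glycolysis, and photoreceptors are known for a high rate of aerobic glycolysis, so these genes are shared between the sorted cells and other cells of the retina.

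Expression was given as FPKM, fragments scaled to gene length and library size. Levels of different genes can be set side by side as far as these lengths hold. The length is that of the gene's row, and it was not checked against the transcripts present. The read total to which FPKM was scaled, recovered for each library from its values, ranged from 8647276 to 15708302. The microglia list (8 genes, among them Aif1, Cx3cr1, P2ry12 and Tmem119) had a mean log2(FPKM + 1) of 6.95 to 8.99 in the 16 libraries, and none of its genes was at 0 throughout a group. Markers of other retinal cells were present too. The rod list (10 genes) had a mean of 5.41 to 8.50, and its summed level was 1584 to 10560 FPKM. Day 0 replicate 1 stood apart, with the highest rod mean (8.50), Mueller glia and astrocyte mean (5.85), endothelial and pericyte mean (5.15) and erythrocyte mean (5.11), and the lowest microglia mean (6.95) of its group. The T, NK and B cell list did not exceed a summed 0.410 FPKM in any library. In bulk libraries fewer cells of a type and less RNA per cell cannot be told apart.

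Several of these genes have near copies elsewhere in the genome, which bears on what their rows hold. Rows whose transcripts matched a member at 90% identity or more, over 200 bases or more and 50% or more of their length, were counted as near copies, and there were 233 such rows. The share of the reads of a gene and its near copies that was counted on the copies had a median over the 16 libraries of 51.9% for Pgk1 (4 copies), 47.9% for Eno1 (7), 44.3% for Gapdh (189), 31.7% for Pgam1 (3) and 16.7% for Pkm (8). It was 7.1% for Ldha (15), 3.29% for Tpi1 (2) and 1.25% for Aldoa (5), and Hk2 and Pfkl had no such rows. Within a gene these shares moved little, from 43.0% to 48.3% for Gapdh and from 6.56% to 7.63% for Ldha. The 60-base stretches below come from the coding sequence of the gene (GENCODE M21, GRCm38) and are those with the most differences from the copy, or the first aligned stretch where none differs. They are shown because, within the aligned bases, only reads over a differing base can tell a gene from its copy. Capitals mark those bases. Only the coding bases of the gene were aligned here. The Pgk1 row holds 2244 bases against 1255 for Pgk1-rs7, and that of Gapdh 4133 against 1002 for Gm12033. Reads over bases that a copy lacks can also tell them apart. Gapdh, on chromosome 6, and its pseudogene Gm12033, on chromosome 11, differed at 1 of 999 aligned coding bases.
Gapdh: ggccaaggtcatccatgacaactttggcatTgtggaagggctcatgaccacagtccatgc
Gm12033: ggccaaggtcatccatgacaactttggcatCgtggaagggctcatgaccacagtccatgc
Pgk1, on chromosome X, and Pgk1-rs7, on chromosome 12, differed at 0 of 1250 aligned bases of 1251 coding bases.
Pgk1: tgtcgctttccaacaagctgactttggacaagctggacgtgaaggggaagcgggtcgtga
Ldha, on chromosome 7, and Gm5452, on chromosome 13, differed at 39 of 995 aligned coding bases, and 5 of those lie in the stretch shown.
Ldha: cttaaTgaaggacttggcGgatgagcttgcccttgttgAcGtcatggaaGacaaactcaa
Gm5452: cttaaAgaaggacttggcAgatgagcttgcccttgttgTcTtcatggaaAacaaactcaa
The levels of Gapdh, Pgk1, Eno1 and Pgam1 are therefore uncertain as levels of 1 gene, while those of Hk2, Pfkl, Aldoa, Tpi1 and Ldha rest for the most part on their own rows.

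**Figure D1:**
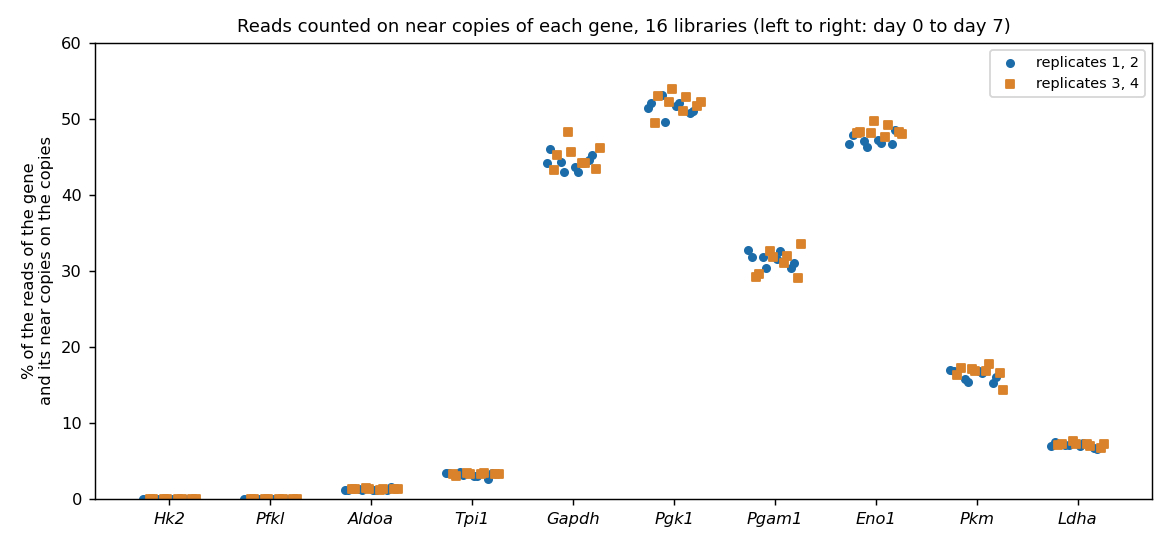
Percent of the reads of each gene and its near copies that were counted on the copies (vertical axis), 1 point per library, from day 0 at the left of each gene to day 7 at the right; colour and shape tell replicates 1 and 2 from replicates 3 and 4. Pgk1, Eno1 and Gapdh sat between 43.0% and 53.9% in all 16 libraries, while Ldha stayed at or under 7.63% and Tpi1 at or under 3.51%.

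By mean level over the 16 libraries, Aldoa was highest at 509 FPKM, followed by Ldha (328 FPKM), Pkm (261 FPKM), Gapdh (206 FPKM), Tpi1 (194.5 FPKM) and Eno1 (189 FPKM). Pgam1 (90.1 FPKM), Pgk1 (62.7 FPKM), Pfkl (26.7 FPKM) and Hk2 (14.0 FPKM) were lower. The ranges over libraries of each pair of neighbours in this order overlapped. The order depends on the row lengths, since a longer row lowers FPKM for the same reads. They were 4133 bases for Gapdh and 5379 for Eno1, against 1982 for Pgam1. When the reads of the near copies were added, a choice made after the data were seen, Gapdh moved from the fourth place to the second (372 FPKM) and Eno1 from the sixth to the third (361 FPKM). Those sums were divided by the same row lengths. The ratio of the highest to the lowest library was smallest for Gapdh, at 2.42, and largest for Hk2, at 12.2. Hk2 was covered by 167 to 3240 reads per library and Ldha by 5545 to 34835 reads.

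**Figure D2:**
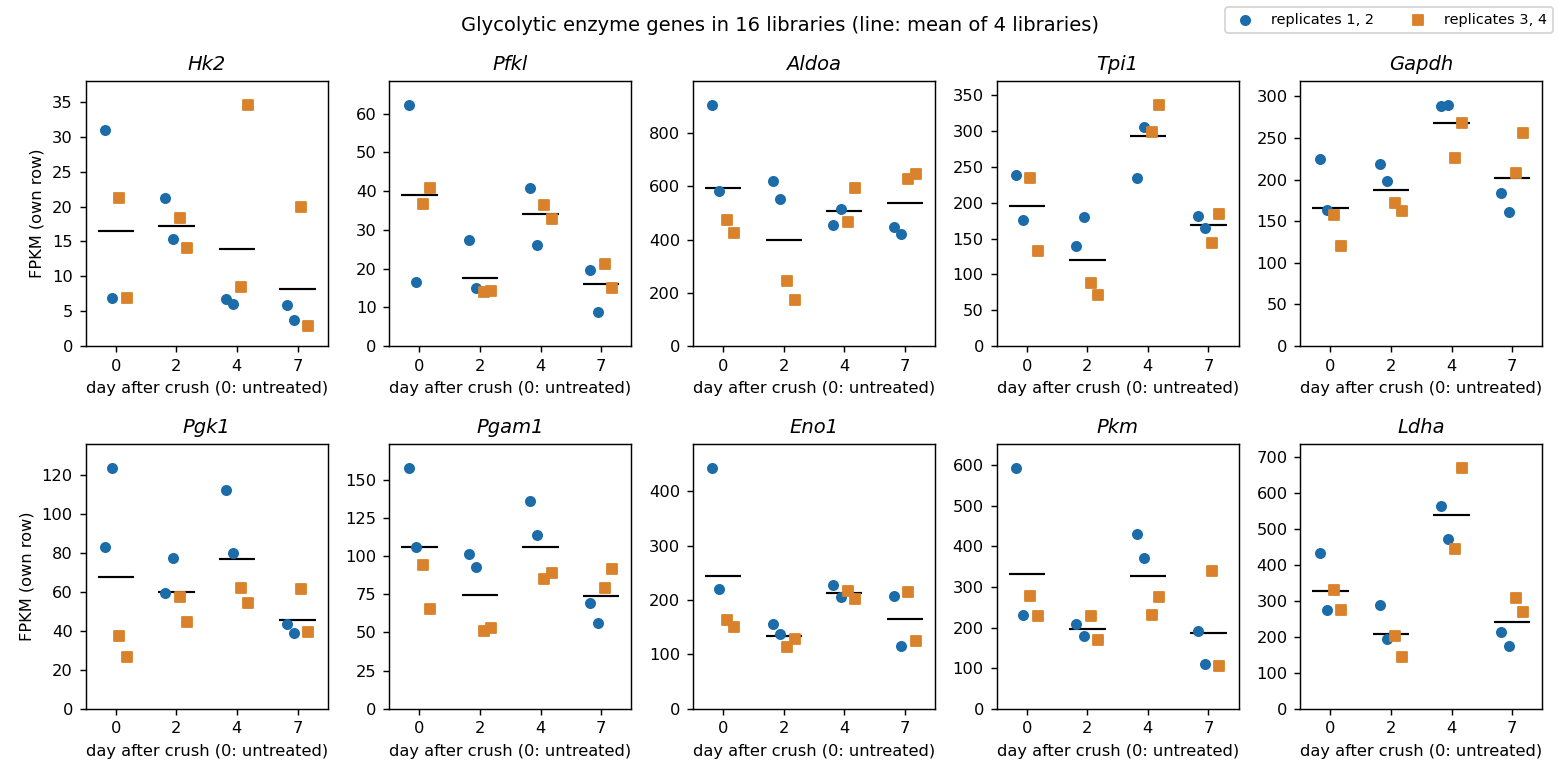
FPKM of each of the 10 genes (vertical axis, own scale from 0) in each library, by day after crush (horizontal axis); colour and shape tell replicates 1 and 2 from replicates 3 and 4 and the line is the mean of 4 libraries. The 4 day 4 libraries of Ldha (444 to 670.0 FPKM) lie above every other library, and those of Tpi1 (234.5 to 336 FPKM) lie above every day 2 and day 7 library.

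Ldha and Tpi1 were the members called in any comparison of days or in the F test, though their calls were lost under several other settings described with each comparison. Ldha, at the fermentative end of the pathway, lies on chromosome 7 from 46841475 to 46855627 (+ strand, GRCm38.p6). Its level was 433, 276, 330.4 and 274 FPKM in day 0 replicates 1 to 4, and 287, 194.5, 202 and 143 FPKM at day 2. At day 4 it was 563, 473, 444 and 670.0 FPKM, and at day 7 it was 212, 173, 309 and 268 FPKM. In FPKM as deposited, all 4 day 4 libraries were above all other libraries, and the groups of days 0 and 7 overlapped. Here and below, overlap of levels was read from FPKM without rescaling. Median-of-ratios factors, the other scaling tried, were 1.27 to 1.39 at day 4 and 0.90 to 1.01 at day 0. They were 1.01 to 1.16 at day 2 and 0.81 to 1.13 at day 7. Dividing by them lowers day 4 relative to the other days, and overlap was not assessed after it. Mean levels were 207 ± 59.6 FPKM at day 2 and 538 ± 102 FPKM at day 4 (SD, n = 4), a ratio of 2.60.

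Tpi1 encodes triose phosphate isomerase, which interconverts the products of the aldolase step. It lies on chromosome 6 from 124810586 to 124814296 (- strand). Its level was 239, 176, 234 and 133 FPKM at day 0 and 139.8, 179.6, 87.8 and 71.0 FPKM at day 2. It was 234.5, 306, 298 and 336 FPKM at day 4 and 182, 166, 144 and 184 FPKM at day 7. The day 4 libraries were all above those of days 2 and 7, and they overlapped with day 0, where replicate 1 exceeded the lowest day 4 value. The mean was 120 ± 49.6 FPKM at day 2 and 294 ± 42.8 FPKM at day 4 (SD, n = 4), a ratio of 2.46.

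Between days 2 and 4, groups of the same age, 2 of the 10 enzymes rose and none fell by limma (adjusted p under 0.05 over all genes tested, two-sided), where 0.453% of all genes tested were called in either direction and 0.433% as higher. Ldha rose by 1.40 ± 0.26 (SE) on the log2(FPKM + 1) scale (limma adjusted p = 0.0291), and Tpi1 rose by 1.37 ± 0.27 (limma adjusted p = 0.0409). The estimate was positive for 9 of the 10 enzymes, Hk2 being the other, with a median of 0.61 against 0.16 over all genes tested, and 5 had an unadjusted p under 0.05, as had 11.4% of all genes. The groups did not overlap for Tpi1, Gapdh, Eno1, Pkm and Ldha, all higher at day 4, where 7.83% of all genes were higher without overlap. Of these, Gapdh had an estimate of 0.51 (limma adjusted p = 0.362), Eno1 of 0.67 (limma adjusted p = 0.394) and Pkm of 0.70 (limma adjusted p = 0.515). When FPKM were rescaled by median-of-ratios factors, the median of all genes moved from 0.16 to -0.05 and the share of higher among the called genes from 95.5% to 72.0%. The median of the enzymes then went from 0.61 to 0.31. Ldha then had an estimate of 1.11 (limma adjusted p = 0.1003) and Tpi1 of 1.08 (limma adjusted p = 0.156), so both calls were lost, while both stayed positive.

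The titles carry a 6-digit code whose first 4 digits are the same for replicates 1 and 2 of every day and differ from those of replicates 3 and 4, and its meaning is not stated. Within replicates 1 and 2 the day 4 against day 2 estimate of Ldha was 1.12 and within replicates 3 and 4 it was 1.67. For Tpi1 these were 0.75 and 1.99, and for Aldoa they had opposite signs, -0.28 and 1.35, a difference with a limma adjusted p of 0.180 over all genes. Days 2 and 4 share no full title code. With the full code as covariate Ldha had an estimate of 1.01 (limma adjusted p = 0.353) and Tpi1 of 1.31 (limma adjusted p = 0.190), and the median of the enzymes was 0.10 with 6 of 10 positive, against 0.07 over all genes. The titles of day 2 replicates 3 and 4 also carry F where all others carry M, and without those libraries Ldha had an estimate of 1.09 (limma adjusted p = 0.238) and Tpi1 of 0.89 (limma adjusted p = 0.291). Leaving out 1 library at a time, Ldha lost its call without day 2 replicates 2, 3 or 4 or any day 4 library (limma adjusted p = 0.0690 to 0.0995), with estimates of 1.22 to 1.49. Tpi1 lost it without day 0 replicate 2, day 2 replicates 1, 3 or 4, day 4 replicates 2, 3 or 4, or day 7 replicates 1, 2 or 3 (limma adjusted p = 0.05005 to 0.129), with estimates of 1.19 to 1.44.

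Between days 4 and 7, Ldha was the 1 enzyme that fell and none rose, where 1.63% of all genes were called and 1.5% as lower. It fell by 1.17 on the log2(FPKM + 1) scale (SE 0.26, limma adjusted p = 0.0349), to 0.448 of its day 4 mean. The estimate was negative for 9 of the 10 enzymes, Aldoa (0.06) being the other, and the median was -0.71 against -0.25 over all genes. The groups did not overlap for Pfkl, Tpi1 and Ldha, all lower at day 7, where 8.66% of all genes were lower without overlap. Pfkl had an estimate of -1.08 (limma adjusted p = 0.189) and Tpi1 of -0.79 (limma adjusted p = 0.157). Within replicates 1 and 2 the estimate for Ldha was -1.42 and within replicates 3 and 4 it was -0.92. With median-of-ratios factors the median of all genes moved to 0.05, the share of higher among called genes went from 7.88% to 44.7%, and Ldha had an estimate of -0.72 (limma adjusted p = 0.189). The median of the enzymes then was -0.29, with 3 of 10 positive. With the full title code it was -0.42 and the Ldha call was lost (-1.11, limma adjusted p = 0.107), and with the rod list as covariate it was -1.07. The call was also lost without any 1 of the day 4 libraries or day 7 replicates 1 or 2 (limma adjusted p = 0.0507 to 0.115). Without day 7 replicate 3, Pkm was called as well, with an estimate of -1.35 (limma adjusted p = 0.0464).

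Against day 0, none of the 10 enzymes was called by limma at day 2, day 4 or day 7, where 0.311%, 5.34% and 0.406% of all genes were called. An unadjusted p under 0.05 was found for 4, 3 and 2 of the 10 in these comparisons, as for 9.73%, 20.9% and 12.1% of all genes. All 3 comparisons share the day 0 libraries. At days 2 and 7 no enzyme had groups without overlap with day 0, where 4.71% and 5.02% of all genes had. The median estimate of the enzymes was -0.66 at day 2, 0.05 at day 4 and -0.46 at day 7, beside 0.04, 0.16 and -0.07 over all genes. These medians rest on few libraries. Without day 0 replicate 1 they were -0.38, 0.31 and -0.27, and without both F libraries the day 2 value was -0.23. The day 7 value was -0.25 without day 7 replicate 2. The day 4 value was -0.06 without day 0 replicate 2, -0.03 without day 0 replicate 4 or day 4 replicate 1, and 0.13 without day 4 replicate 3. With the full title code the 3 values were -0.41, -0.14 and -0.69. Within replicates 1 and 2 alone and within replicates 3 and 4 alone the day 7 values were -1.02 and 0.00421, and those of day 4 were -0.02 and 0.44. With the rod list as covariate the day 4 value was 0.29, and with the bipolar and Mueller glia lists it was 0.26. At day 4 the groups did not overlap for Gapdh and Ldha, both higher, where 12.6% of all genes were higher without overlap. Gapdh had an estimate of 0.71 (limma adjusted p = 0.0672) and Ldha of 0.72 (limma adjusted p = 0.118). Gapdh was called when day 0 replicate 1 was left out (0.85, limma adjusted p = 0.0357) and when day 7 replicate 4 was (0.71, limma adjusted p = 0.0405). With the rod list as a covariate both Gapdh (0.88, limma adjusted p = 0.0149) and Ldha (0.94, limma adjusted p = 0.0184) were called. Other settings gave smaller estimates. With median-of-ratios factors Gapdh had 0.240 (limma adjusted p = 0.553) and Ldha 0.244 (limma adjusted p = 0.636). With the full title code Gapdh had 0.47 (limma adjusted p = 0.308) and Ldha 0.38 (limma adjusted p = 0.541). With median-of-ratios factors the median of all genes moved from 0.16 to -0.17, that of the enzymes from 0.05 to -0.42, and the share of higher among the called genes from 86.6% to 56.5%. The same share went from 80.4% to 68.5% at day 2, while at day 7 it went from 66.7% to 57.5%.

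Over the 4 days together, the F test of limma called Ldha (adjusted p = 0.0253) and Tpi1 (adjusted p = 0.0484) and none of the other 8 enzymes, where 2.89% of all genes were called.

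**Figure D3:**
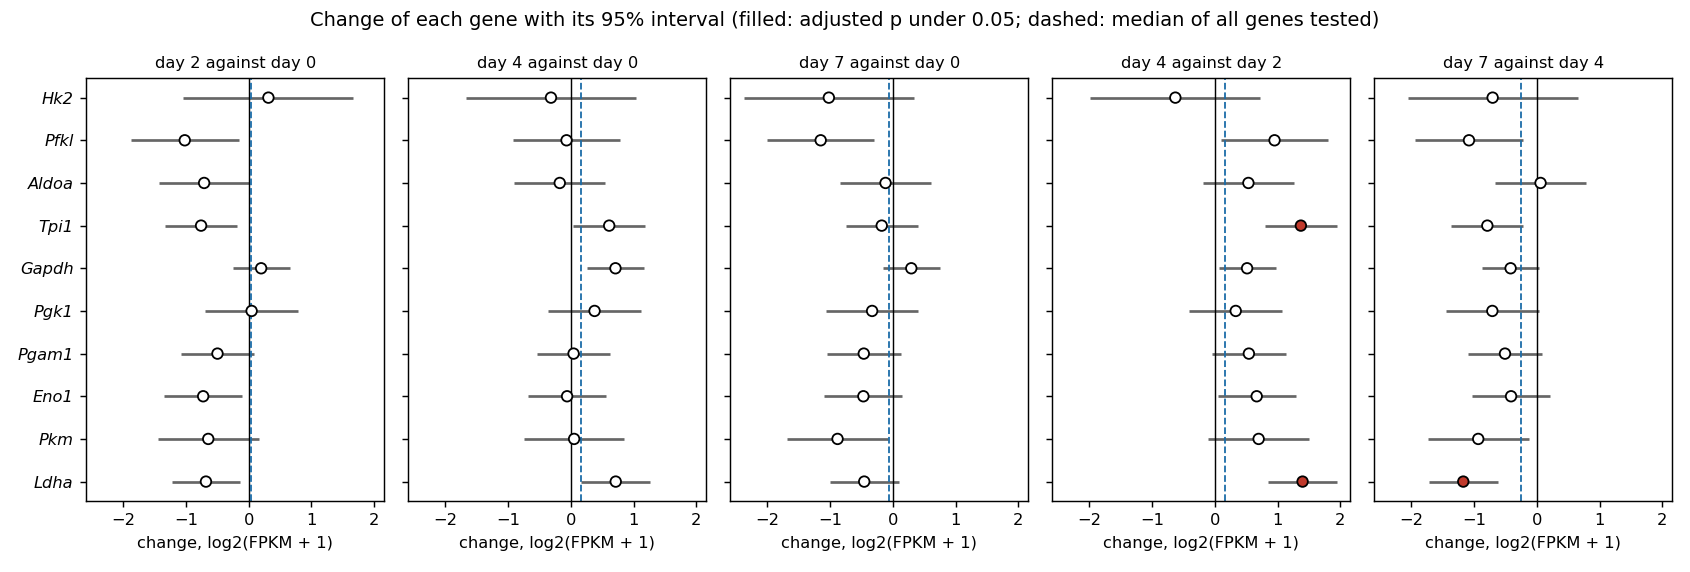
Change of each enzyme gene (points, log2(FPKM + 1) scale) with its 95% interval (bars) in 5 comparisons, filled where the limma adjusted p was under 0.05; the dashed line is the median of all genes tested. Filled points are Tpi1 (1.37) and Ldha (1.40) for day 4 against day 2 and Ldha (-1.17) for day 7 against day 4.

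The other members are given in pathway order. Hk2, an inducible hexokinase bound to mitochondria, was at 30.9, 6.85, 21.3 and 6.96 FPKM at day 0 and at 21.2, 15.4, 18.4 and 14.0 FPKM at day 2. It was at 6.78, 6.03, 8.54 and 34.6 FPKM at day 4 and at 5.96, 3.71, 19.95 and 2.84 FPKM at day 7. At days 0, 4 and 7 libraries of the same group differed more than the group means did, and the groups of every comparison overlapped.

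Pfkl, the liver-type phosphofructokinase, was at 62.2, 16.4, 36.6 and 40.9 FPKM at day 0 and at 27.3, 15.0, 14.0 and 14.2 FPKM at day 2. It was at 40.9, 26.1, 36.4 and 32.9 FPKM at day 4 and at 19.5, 8.86, 21.2 and 14.95 FPKM at day 7. Days 2 and 7 were low, but day 2 replicate 1 reached above the lowest day 4 library.

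Aldoa, the aldolase of most tissues, was at 906, 581, 473 and 424 FPKM at day 0 and at 622, 551, 245 and 174 FPKM at day 2. It was at 454, 514, 467 and 596 FPKM at day 4 and at 446, 422, 629 and 647 FPKM at day 7. At days 0 and 2 replicates 1 and 2 were above replicates 3 and 4, and at day 7 they were below them.

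Gapdh makes NADH at the first oxidation of the pathway. It was at 225, 164, 158 and 119.8 FPKM at day 0, and at 219, 198, 171 and 162 FPKM at day 2. It was at 289, 289.6, 226 and 268 FPKM at day 4 and at 184, 162, 208 and 257 FPKM at day 7. The day 4 libraries were above those of days 0 and 2, and day 7 replicate 4 reached into their range.

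Pgk1 makes the first ATP of the pathway. It was at 83.1, 124, 37.6 and 26.6 FPKM at day 0 and at 59.7, 77.7, 57.3 and 44.8 FPKM at day 2. It was at 112, 80.2, 62.05 and 54.4 FPKM at day 4 and at 43.5, 38.8, 61.5 and 39.7 FPKM at day 7. Its day 7 against day 0 estimates were -1.28 within replicates 1 and 2 and 0.63 within replicates 3 and 4, a difference with a limma adjusted p of 0.250.

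Pgam1 moves the phosphate group of 3-phosphoglycerate. It was at 158, 106, 94.2 and 65.5 FPKM at day 0 and at 101, 92.6, 51.2 and 53.0 FPKM at day 2. It was at 136, 114, 84.9 and 89.2 FPKM at day 4 and at 69.4, 56.2, 78.8 and 91.8 FPKM at day 7. At days 0, 2 and 4 replicates 1 and 2 were both above replicates 3 and 4.

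Eno1, which makes phosphoenolpyruvate, was at 443, 221, 163 and 149.5 FPKM at day 0 and at 155, 138, 114 and 128 FPKM at day 2. It was at 227, 206, 216 and 201 FPKM at day 4 and at 207, 116, 215 and 125 FPKM at day 7. Its row has near copies with almost as many reads as it has itself, so that level and spread are those of a share of the family.

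Pkm makes pyruvate and ATP. It was at 594, 232, 279 and 228 FPKM at day 0 and at 208, 179.6, 229.7 and 169 FPKM at day 2. It was at 430.0, 371, 232 and 275 FPKM at day 4 and at 191, 111, 341 and 104 FPKM at day 7. Day 0 replicate 1 was the highest library, as it was for Pfkl, Aldoa, Pgam1 and Eno1, and it is the library with the highest rod mean. The part of those cells in these levels was not tested. The row shares 15.3% of its exon bases with Gm49759 on the same strand, and the library kit does not mark strand.

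Several steps have isozymes from other genes, and levels per length allow shares of the summed FPKM of a step. The size of a share depends on the row lengths of its genes, which are the same in every library. Ldha made up 69.2%, 38.7%, 44.7% and 29.5% of Ldha and Ldhb together in day 0 replicates 1 to 4. Its share was 28.6%, 29.5%, 25.9% and 20% at day 2. At day 4 it was 63.1%, 62.6%, 62.4% and 66.2%, and at day 7 it was 31.3%, 31.7%, 35.7% and 26.1%. The day 4 libraries lay within a narrow band above all libraries of days 2 and 7 and above 3 of the 4 day 0 libraries, day 0 replicate 1 being higher. Ldhb, the isozyme that favours the oxidation of lactate, was at 267 to 342 FPKM at day 4 against 464.5 to 717 FPKM at day 2 and 373 to 759.6 FPKM at day 7. At day 0 Ldhb was at 192, 437, 408.5 and 656 FPKM, a range that spans that of day 4. Its estimate was -0.92 ± 0.29 (SE) for day 4 against day 2 (limma adjusted p = 0.191) and 0.78 ± 0.29 for day 7 against day 4 (limma adjusted p = 0.187). Shares were described and not tested.

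Aldoa made up 90.7% to 98.6% of Aldoa and Aldoc together at day 4, above the 78.1% to 87.2% of day 0 and the 78.2% to 90.2% of day 2, and it overlapped with the 83.2% to 94.7% of day 7. Aldoc, the aldolase of astrocytes and Mueller glia among others, was at 254.5, 152, 93.9 and 62.1 FPKM at day 0 and at 46.45, 36.95, 29.9 and 8.18 FPKM at day 4. It fell by 2.21 on the log2(FPKM + 1) scale from day 0 to day 4 (SE 0.37, limma adjusted p = 0.00510). The Mueller glia and astrocyte list (8 genes) had a mean log2 level of 2.63 to 5.85 at day 0, 1.63 to 2.22 at day 4 and 2.47 to 5.24 at day 7, with 1 of its genes at 0 in all day 4 libraries, and its part in the fall was not tested. Eno1 made up 87.5% to 99.4% of Eno1, Eno2 and Eno3 at day 4, narrowly above the 75.2% to 87.1% of day 2. The day 4 range overlapped with the 76.6% to 91.6% of day 0 and the 75.7% to 96.2% of day 7. Eno1b, a near copy of Eno1 at 152 to 564 FPKM, was not part of that sum. The shares of Hk2 among Hk1, Hk2 and Hk3 ranged from 8.19% to 88.0% within day 4, and those of Pfkl among Pfkl, Pfkm and Pfkp from 36.2% to 99.2% within day 2.

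**Figure D4:**
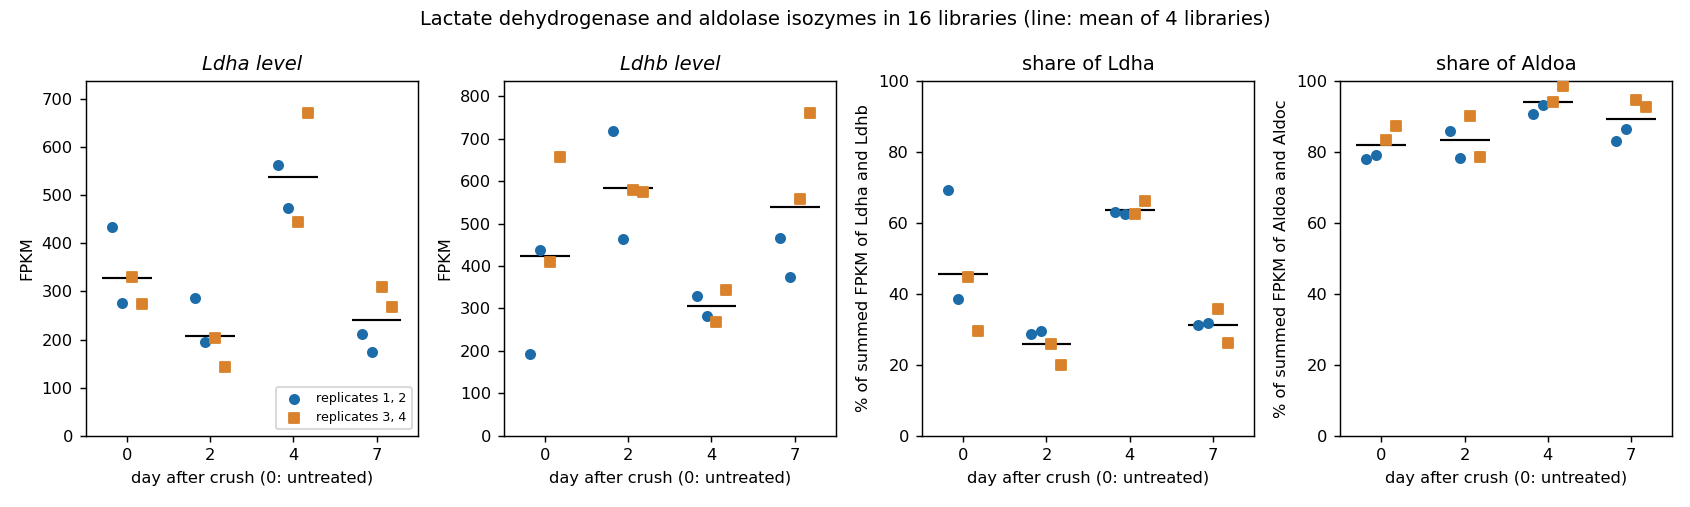
Levels of Ldha and Ldhb in FPKM, and the percent of the summed FPKM of Ldha and Ldhb taken by Ldha and of Aldoa and Aldoc taken by Aldoa, in each library by day after crush; colour and shape tell replicates 1 and 2 from replicates 3 and 4 and the line is the mean of 4 libraries. The share of Ldha was 62.4% to 66.2% at day 4, above the 20% to 29.5% of day 2 and the 26.1% to 35.7% of day 7.

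The ranges of the bipolar, rod and microglia lists at days 2, 4 and 7 are given here, with calls in some other lists. No gene of the bipolar, rod or microglia list was called for day 4 against day 2, where 0.453% of all genes were called. Of the microglia list, P2ry12 was at 628 to 1050 FPKM at day 2 and at 202 to 406 FPKM at day 4. Its groups did not overlap, as for 9.52% of all genes, while the other genes of that list overlapped. For day 7 against day 4, 2 of the 10 bipolar genes were called, both higher at day 7. In that comparison 1.63% of all genes were called, 1.5% as lower. For day 4 against day 0, 5 of the 10 bipolar genes and 1 of the 8 Mueller glia and astrocyte genes were called lower. There 5.34% of all genes were called, and the bipolar median was -2.18 against 0.16 over all genes. The bipolar list (10 genes) had a mean log2 level of 0.78 to 2.44 at day 2, 0.03 to 1.45 at day 4 and 1.80 to 4.07 at day 7, with 1 gene at 0 in all day 4 libraries. The rod list had 5.75 to 7.55 at day 2, 5.41 to 7.28 at day 4 and 6.96 to 7.83 at day 7, with no gene at 0 throughout a group. The microglia list had 7.48 to 8.99 at day 2, 7.85 to 7.995 at day 4 and 7.02 to 7.93 at day 7. Its median estimate was -0.40 for day 4 against day 2 and -0.96 for day 7 against day 0. Over all genes these medians were 0.16 and -0.07. Of 3 monocyte genes 1, Plac8, was tested and called higher for day 7 against day 0 (3.14), where 0.406% of all genes were called. Of 4 border-associated macrophage genes 3 were tested, with 1 called lower against day 0 at day 4 and 1 at day 7. The macrophage median was -0.15 for day 4 against day 2 and -1.99 for day 7 against day 4. The part of these cells in the enzyme levels was not tested. With the rod list as a covariate the day 4 against day 2 estimates were 1.58 for Ldha (limma adjusted p = 0.00593) and 1.43 for Tpi1 (limma adjusted p = 0.0398), and that of Ldha for day 7 against day 4 was -1.62 (limma adjusted p = 0.0121). With the bipolar and the Mueller glia lists as covariates the day 4 against day 2 estimates were 1.35 for Ldha and 1.41 for Tpi1 (limma adjusted p = 0.0936 for both). That of Ldha for day 7 against day 4 was -0.98 (limma adjusted p = 0.585). With the microglia list as a covariate, added after the data were seen, they were 1.27 for Ldha (limma adjusted p = 0.0615), 1.15 for Tpi1 (limma adjusted p = 0.0626) and -1.31 for Ldha at day 7 against day 4 (limma adjusted p = 0.0394).

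**Figure D5:**
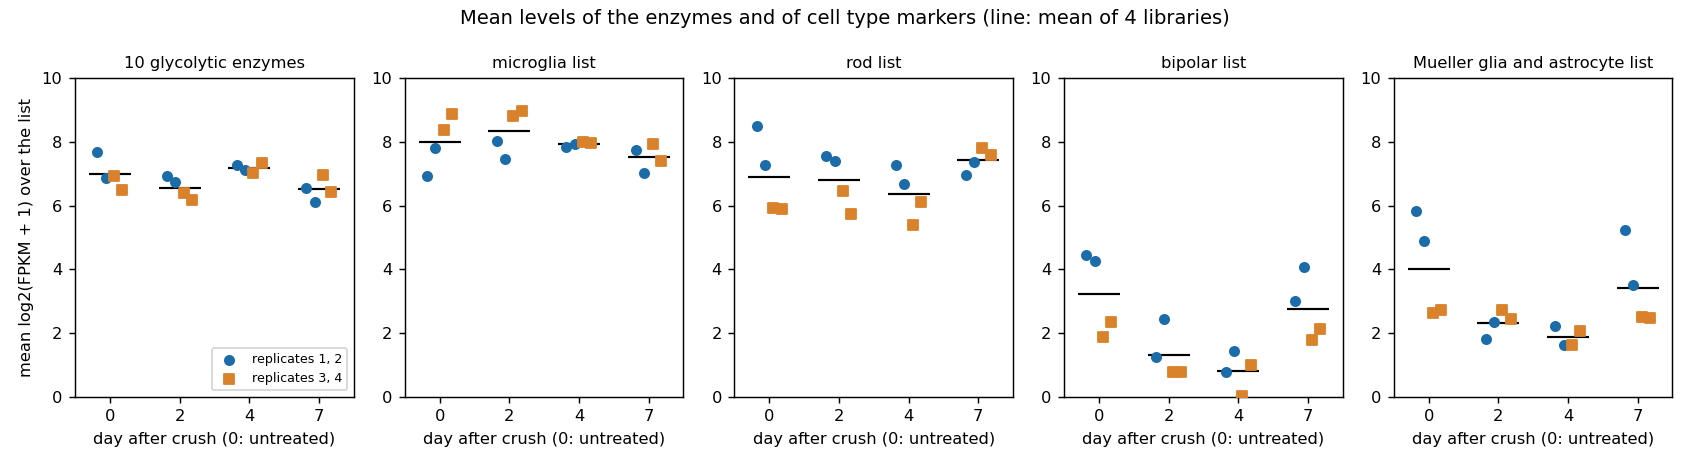
Mean log2(FPKM + 1) over the 10 enzymes and over 4 lists of cell type markers in each library, by day after crush; colour and shape tell replicates 1 and 2 from replicates 3 and 4 and the line is the mean of 4 libraries. The bipolar and the Mueller glia and astrocyte lists had their lowest library at day 4, where they ranged from 0.03 to 1.45 and from 1.63 to 2.22. The microglia list ranged from 6.95 to 8.99 over all libraries.

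Other genes of glucose metabolism came from 11 lists, and their counts are to be read against the 5.34% of all genes called for day 4 against day 0. Of the 20 other isozymes of the same steps, 14 were tested, and Aldoc was the 1 that changed, at day 4 against day 0. Among 17 genes of the citric acid cycle, all tested, Sdhb, a subunit of succinate dehydrogenase, rose by 1.91 ± 0.40 (SE) from day 0 to day 4 (limma adjusted p = 0.0142), from 18.2 to 72.4 FPKM at day 0 to 138 to 186 FPKM at day 4. That is 1 of 17 genes, near the 5.34% of all genes. The highest of that list, Sdhd, had an estimate of 0.66 (limma adjusted p = 0.0897), and no other member was called. The list's median was 0.66 against 0.16 over all genes.

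In the pentose phosphate pathway, which branches off after hexokinase and makes NADPH, 6 of 7 genes were tested. Pgd, its second NADPH-making dehydrogenase, rose by 1.47 ± 0.32 (SE) from day 0 to day 4 (limma adjusted p = 0.0176). It was at 11.3, 5.41, 19.3 and 16.4 FPKM at day 0 and at 29.8, 30.9, 38.7 and 41.0 FPKM at day 4. These groups did not overlap, where 12.6% of all genes were higher without overlap. Pgd was the 1 gene called of the 6 tested, beside 5.34% of all genes. Taldo1, the highest of the list, had an estimate of 0.80 (limma adjusted p = 0.0756), and G6pdx, which starts the pathway, of 1.25 (limma adjusted p = 0.255). The list's median was 1.25.

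Of 8 genes of the NADH shuttles, which move reducing equivalents from cytosolic NADH into mitochondria, all were tested and none rose. Gpd2, of the glycerol phosphate shuttle, fell by 2.39 on the log2(FPKM + 1) scale from day 0 to day 4 (SE 0.43, limma adjusted p = 0.00698) and fell by 2.41 from day 0 to day 7 (SE 0.43, limma adjusted p = 0.0279). Its levels were low, from 2.37 to 9.83 FPKM at day 0 and at most 0.138 FPKM at day 4. Mdh1, of the malate shuttle, was the highest of the list, with an estimate of 0.28 at day 4 against day 0 (limma adjusted p = 0.569).

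None of the 11 genes of glucose and lactate transport was called, with 9 tested. Bsg, a chaperone of lactate transporters, was highest, at 192 to 1224 FPKM, with its highest value in day 0 replicate 1, and Slc2a5, a fructose transporter, was at 7.25 to 139.7 FPKM. Their day 4 against day 0 estimates were -0.94 (limma adjusted p = 0.109) and -1.57 (limma adjusted p = 0.111). Slc16a3, the lactate exporter MCT4, is named after its values were seen: it was at 12.1, 23.7, 14.5 and 13.1 FPKM at day 4 and at most 9.68 FPKM in any other library. At day 4, 12.6% of all genes were higher without overlap against day 0 and 7.83% against day 2. The estimates of Slc16a3 were 2.51 ± 0.72 (SE) for day 4 against day 0 (limma adjusted p = 0.0565) and 2.35 ± 0.72 for day 4 against day 2 (limma adjusted p = 0.184). The median of the list went the other way, at -0.945 and -0.265 in these comparisons.

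None of the 13 regulators of hypoxia and glycolysis was called, with 12 tested. Hif1a, the oxygen-sensitive factor that drives many glycolytic genes, was at 16.7 to 92.7 FPKM and had an estimate of 0.31 ± 0.47 (SE) for day 4 against day 2 (limma adjusted p = 0.858). Vhl, which marks it for degradation, was next in level, with an estimate of 0.11 (limma adjusted p = 0.976). Of 14 HIF target genes outside glycolysis, 13 were tested, and Ndrg1 fell by 2.3 from day 0 to day 4 (SE 0.60, limma adjusted p = 0.0398), from levels of 3.75 to 14.4 FPKM to at most 1.77 FPKM. That is 1 of 13 genes, near the 5.34% of all genes called in that comparison. Bnip3, the highest of that list, had an estimate of -0.98 in the same comparison (limma adjusted p = 0.160) and Higd1a of 0.06 (limma adjusted p = 0.937). The list's median was -0.88 at day 4 against day 0 and -0.07 at day 4 against day 2.

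No gene was called in the lists of fructose 2,6-bisphosphate control (4 of 5 tested), pyruvate entry into mitochondria (12 of 13), gluconeogenesis (3 of 7) and glycogen turnover (7 of 9). Their 2 highest genes and day 4 against day 0 estimates were Pfkfb4 (-0.91) and Pfkfb3 (-0.44), Mpc1 (0.71) and Pdhb (0.13), G6pc3 (-1.14) and Pcx (-1.88), and Ugp2 (-0.64) and Pgm2 (1.21). Their limma adjusted p-values were 0.150 for Mpc1, 0.156 for Pcx and 0.516 or more for the others.

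Because Ldha and Tpi1 were both higher at day 4 than at day 2, the bases just before their start sites are shown. The sequences are the 250 bases before the first listed start of each gene (RefSeq, GRCm38.p6, 5′ to 3′ on the gene's strand), at chr7:46845554-46845803 (+ strand) for Ldha and chr6:124814159-124814408 (- strand) for Tpi1. Capitals mark ACGTG on either strand, the core letters bound by the HIF factors in one of their common forms and by several bHLH factors; GCGTG, the other core, was also searched on both strands. Overlapping matches were counted as 1 place.
Ldha: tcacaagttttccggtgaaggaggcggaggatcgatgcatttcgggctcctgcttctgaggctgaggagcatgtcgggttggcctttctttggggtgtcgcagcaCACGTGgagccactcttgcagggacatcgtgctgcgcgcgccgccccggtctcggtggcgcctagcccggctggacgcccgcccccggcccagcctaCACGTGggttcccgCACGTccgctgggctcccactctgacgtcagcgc
Tpi1: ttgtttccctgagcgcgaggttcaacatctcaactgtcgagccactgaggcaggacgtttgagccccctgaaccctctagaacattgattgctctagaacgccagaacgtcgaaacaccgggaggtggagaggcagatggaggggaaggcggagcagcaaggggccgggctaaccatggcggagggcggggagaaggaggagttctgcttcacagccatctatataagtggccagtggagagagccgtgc
The Ldha stretch shown held ACGTG in 3 places and GCGTG in 0, and the Tpi1 stretch held 0 of either. Ldha has 2 listed starts. The stretch before the other start (chr7:46846832-46847081) held ACGTG in 0 places and GCGTG in 1. ACGTG was found in 7 of the 16 stretches before the listed starts of the enzymes and in 16.6% of 32851 such stretches of all genes. The 7 belong to Hk2, Aldoa, Pgk1, Pgam1, Pkm and Ldha. GCGTG was found in 7 of the 16 stretches and in 28.2% of those of all genes. Some stretches of the same gene overlap and are not independent. These letters are a description and not a site in use.

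Across the 16 libraries the genes most like the mean log2 level of the 10 enzymes, among 5019 genes with a mean of 10 FPKM or more, were Lyar (Pearson r = 0.885), Gm49759 (0.852), Pfdn6 (0.802), Gm50037 (0.749), Gm5844 (0.743) and Gm20537 (0.728). Gm49759 overlaps the exons of Pkm. All points share library, depth and day, and the values are descriptions. Among the enzymes themselves, Ldha (0.868), Pgam1 (0.862), Eno1 (0.858) and Pkm (0.850) lay closest to the mean of the 10, of which each is a part, and Hk2 (0.492) farthest.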

How the data were processed

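RNA was measured in 16 libraries, 4 per day. Sorted cells were lysed, their cDNA was amplified and libraries were made with Nextera XT, per the labels' protocols; this kit does not mark strand. The deposited values are FPKM per gene, with gene lengths, made by the authors, whose processing notes name STAR 2.7.2b, featureCounts 1.6.1 and the build GRCm38.p6 (mm10). The handling of multi-mapped reads is not given in these sources. In each library the most common value of FPKM multiplied by length was taken as 1 read, and reads were recovered from it. Of the values above 0, 47.4% to 63.8% came within 0.02 read of a whole number. In every library 100% came to a multiple of 0.01 read. The values were therefore tested as FPKM, on log2(FPKM + 1), and not as counts. All 37 mitochondrially encoded genes are listed at 0.

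Genes reaching 1 FPKM in 4 or more libraries were fitted with limma 3.58.1 (R 4.3.3; lmFit, eBayes with trend), with a mean per day and the first 4 digits of the title code as covariate, over all 16 libraries. P-values were adjusted by Benjamini-Hochberg over all genes, at a threshold of 0.05. A change is a difference on the log2(FPKM + 1) scale, which understates low genes. Near copies were found with blastn 2.17.0 in GENCODE M21 transcripts. Precision is limited by 4 libraries per day.

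The enzymes and the lists were chosen with earlier results of these data known. Besides the enzymes, the genes named are up to 4 called genes per list, the 2 highest where fewer than 2 were called, the isozymes, and the 6 genes most alike. Other filters, pseudocounts, scalings, covariates and sets of libraries were tried.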

Additional observations from a re-analysis of the deposited data

Results flagged for a closer look

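In 3 of the 40 groups of 4 libraries (10 enzymes by 4 days), 1 library lay far from the others by the gap to its nearest neighbour divided by the range of the group, beyond Dixon's 95% critical value. Chance flags about 1 in 20 groups. Hk2 was at 34.55 FPKM in day 4 replicate 4, with a ratio of 0.912. Pfkl was at 27.26 FPKM in day 2 replicate 1, with a ratio of 0.924. Pkm was at 593.8 FPKM in day 0 replicate 1, with a ratio of 0.861, and that library also had the highest rod list mean of all (8.50).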

How the results depend on the processing

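The 10 enzymes under 5 comparisons gave 1550 alternative estimates over 31 alternatives. None of the called changes reversed, 47 lost a call, 5 gained one and 63 uncalled estimates changed sign. For day 4 against day 2, the 2 enzymes called became 0 with no filter, median-of-ratios factors, the full title code, the bipolar and Mueller glia covariates, either title code alone, without both F libraries or with the microglia covariate, and 1 with day only. For day 7 against day 4, the 1 enzyme called became 0 with no filter, median-of-ratios factors, the full title code, the bipolar and Mueller glia covariates or either title code alone. For day 4 against day 0, 0 became 2 with the rod covariate. For the F test, 2 became 1 with a pseudocount of 0.1, day only or the rod covariate, and 0 with no filter, median-of-ratios factors, the full title code, the bipolar and Mueller glia covariates, without both F libraries or either title code alone. Leaving out 1 library at a time gave 0 to 2 enzymes for day 4 against day 2, for day 7 against day 4 and for the F test, 0 to 1 for day 4 against day 0, and 0 for the other comparisons. Fewer genes (9465) or more genes (49395) enter the adjustment with the stricter filter and with none, and a title code alone holds 2 libraries per day. The cause of the other losses was not tested.

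The count of all genes called also moved. For day 4 against day 2 it was 67, with 111 under the filter of 5 FPKM, 25 with median-of-ratios factors, 39 with the microglia covariate, 8 with the bipolar and Mueller glia covariates, 2 with no filter, 1 with replicates 1 and 2 alone and 0 with the full code, replicates 3 and 4 alone or without both F libraries. For day 7 against day 4 it was 241, with 111 for the microglia covariate, 104 for the full code, 76 for median-of-ratios factors, 65 for the rod covariate, 63 with no filter and 0 for the bipolar and Mueller glia covariates and for either code alone. For day 4 against day 0 it was 790, with 379 for the full code, 308 with no filter, 303 for replicates 1 and 2, 278 for median-of-ratios factors and 0 for the bipolar and Mueller glia covariates and for replicates 3 and 4. For day 2 against day 0 it was 46, with 126 for the full code, 28 for the microglia covariate, 20 for replicates 1 and 2, 14 with no filter, 1 without both F libraries and 0 for the bipolar and Mueller glia covariates and for replicates 3 and 4. For day 7 against day 0 it was 60, with 39 for day only, 38 for a pseudocount of 0.1, 28 for the full code, 21 for the rod covariate, 13 with no filter or the bipolar and Mueller glia covariates, 2 for replicates 1 and 2 and 0 for replicates 3 and 4. For the F test it was 427, with 279 for the rod covariate, 227 for median-of-ratios factors, 120 with no filter, 30 for replicates 1 and 2, 10 for the bipolar and Mueller glia covariates and 0 for replicates 3 and 4. Leaving out 1 library gave 2 to 104, 62 to 271, 283 to 957, 8 to 78, 16 to 57 and 150 to 513 in the same order.

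With the replicate number as a block, the enzymes called were 1 for day 4 against day 2 (Ldha), 1 for day 7 against day 4 (Ldha) and 1 for the F test (Ldha), and Tpi1 was not called (limma adjusted p = 0.0952 for day 4 against day 2). The genes called were 31, 152, 30, 22 and 245 for day 4 against day 2, day 7 against day 4, day 2 against day 0, day 7 against day 0 and the F test. Libraries with the same number had a correlation of deviations over 0.1 in 5 of 24 pairs (-0.06 to 0.23), and 9 were best with their own number. These values do not show a pairing by number and, with 4 libraries per day, cannot exclude one.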

Other observations

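Eno1b, a near copy of Eno1 counted as a gene of its own, was at 152 to 564 FPKM over the 16 libraries, with estimates of 0.65 ± 0.28 (SE) for day 4 against day 2 (limma adjusted p = 0.398) and -0.39 ± 0.28 for day 7 against day 4 (limma adjusted p = 0.527). Eno1 had 0.67 and -0.41 in the same comparisons. The row of Eno1b holds 1877 bases and that of Eno1 5379, so their FPKM do not compare their reads. The cytosolic glucose-phosphate isomerase Gpi1, which joins the hexokinase and phosphofructokinase steps, was at 31.25 to 85.8 FPKM, and is named after its values were seen.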
